A study of Homo sapiens with 6 samples.

Results

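The accessible chromatin around 10 genes of the bone lineage was compared between wild-type (WT) and CRAMP1-knockout (CRAMP1-KO) U2OS cells, an established human osteosarcoma line. The genes were 6 transcription factors of skeletal cells (RUNX2, SP7, TWIST1, SOX9, DLX5 and MSX2) and 4 genes of bone matrix and mineral (COL1A1, COL1A2, ALPL and SPARC). A peak was counted to a gene when it lay between or within 20 kb of the gene's hg19 limits. Peaks of the 6 libraries that overlapped were joined into regions, and 128 of 248031 regions fell to the 10 genes. Of these 128, 60 had a peak in all 6 libraries (46.9%, against 37.3% of all regions), 38 in 2 to 5 libraries and 30 in 1 library.

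Chromatin was assayed by ATAC-seq, in which a transposase inserts sequencing adapters into open DNA, with 3 libraries per genotype. CRAMP1 is known as a chromatin factor needed for the expression of linker histone H1 genes. Each library came from 50000 cells in serum-containing medium, with 30 min of transposition and 7 PCR cycles, and no treatment separates the groups. The labels give neither the number of clones behind the knockout nor whether replicates were separate cultures, so the p-values reflect the spread among these libraries alone, which could be technical.

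Osteoblasts form from mesenchymal precursors under RUNX2, a Runt-domain factor, and SP7 (osterix), a zinc-finger factor that acts downstream of it. SOX9 directs cartilage formation, the homeodomain factors DLX5 and MSX2 pattern and regulate skeletal precursors, and TWIST1, a basic helix-loop-helix factor, restrains RUNX2. The mature cells lay down type I collagen, the product of COL1A1 and COL1A2, with SPARC (osteonectin) bound to it, and ALPL, tissue-nonspecific alkaline phosphatase, frees phosphate for mineral. RUNX2 is read from an upstream (distal) and a downstream (proximal) promoter, and RUNX2 protein binds the distal promoter.

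RefSeq promoter sequences (GRCh38.p14, 250 bases before to 50 after a transcript start) matched 4 of the 10 genes: RUNX2, MSX2, ALPL and SPARC. Shown are 1 start each of ALPL, SPARC and MSX2 and the downstream RUNX2 start, all with a region in all 6 libraries within 1 kb. The upstream (distal) RUNX2 start, which had none, is shown for contrast and was added after its values were seen. Both RUNX2 promoters are given first because 1 had no peak and the other had one in every library. Capitals mark matches, on either strand, to TGTGGT (the RUNX core), CANNTG (E-box), TGANTCA (AP-1), CCAAT and TATAAA, and adjoining capitals hold motifs that overlap or abut.
RUNX2 upstream start (chr6:45328080-45328379, plus strand): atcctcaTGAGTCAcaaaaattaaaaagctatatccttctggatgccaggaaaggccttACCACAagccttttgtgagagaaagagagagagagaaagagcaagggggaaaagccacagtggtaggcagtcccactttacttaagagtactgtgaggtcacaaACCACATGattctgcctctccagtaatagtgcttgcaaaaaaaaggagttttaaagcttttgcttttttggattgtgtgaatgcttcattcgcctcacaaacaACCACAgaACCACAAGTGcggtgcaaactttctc
RUNX2 downstream start (chr6:45422025-45422324, plus strand): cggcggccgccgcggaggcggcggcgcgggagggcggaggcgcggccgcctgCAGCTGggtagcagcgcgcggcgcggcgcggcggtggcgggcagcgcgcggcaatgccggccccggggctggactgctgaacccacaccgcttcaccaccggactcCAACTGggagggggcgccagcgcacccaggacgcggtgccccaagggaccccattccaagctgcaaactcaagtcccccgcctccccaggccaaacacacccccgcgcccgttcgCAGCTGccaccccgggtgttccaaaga
ALPL first start (chr1:21508734-21509033, plus strand): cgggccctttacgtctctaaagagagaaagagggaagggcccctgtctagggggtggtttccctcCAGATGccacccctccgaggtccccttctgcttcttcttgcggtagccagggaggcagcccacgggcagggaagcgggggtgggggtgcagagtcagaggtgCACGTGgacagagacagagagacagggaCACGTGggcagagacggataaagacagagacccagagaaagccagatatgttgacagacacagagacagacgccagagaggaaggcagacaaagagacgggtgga
SPARC start (chr5:151686866-151687165, minus strand): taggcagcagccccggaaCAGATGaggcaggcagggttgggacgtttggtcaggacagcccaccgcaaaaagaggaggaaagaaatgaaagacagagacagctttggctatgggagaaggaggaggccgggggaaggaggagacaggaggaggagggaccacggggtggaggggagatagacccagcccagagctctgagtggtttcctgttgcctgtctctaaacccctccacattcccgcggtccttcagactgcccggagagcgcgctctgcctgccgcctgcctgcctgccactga
MSX2 start (chr5:174724332-174724631, plus strand): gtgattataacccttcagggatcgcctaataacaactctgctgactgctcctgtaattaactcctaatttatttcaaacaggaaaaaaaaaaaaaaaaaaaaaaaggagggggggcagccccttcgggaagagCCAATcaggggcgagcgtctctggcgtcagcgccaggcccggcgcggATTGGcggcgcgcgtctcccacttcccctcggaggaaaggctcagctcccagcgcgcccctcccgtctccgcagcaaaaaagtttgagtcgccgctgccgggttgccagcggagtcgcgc

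The upstream RUNX2 promoter held 4 RUNX cores, 2 E-boxes and 1 AP-1 match in a sequence of 42.7% GC with 2 CpG. The downstream RUNX2 promoter was 76.0% GC with 39 CpG, more CpG than 91.3% of all promoters, and held 3 E-boxes and no RUNX core. The first ALPL start (59.7% GC, 11 CpG) held 3 E-boxes, while a second one 0.439 kb downstream, not shown, was 82.3% GC with 42 CpG and held 1 TATAAA match. SPARC (61.3% GC, 11 CpG) held 1 E-box, and MSX2 (57.0% GC, 24 CpG) held 2 CCAAT boxes. Among 34796 RefSeq promoters of the same length, 13.1% held the RUNX core, 68.7% an E-box, 7.73% the AP-1 motif, 34.6% CCAAT and 11.6% TATAAA. These are letter matches in a window, and binding was not measured.

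Signal was compared as the scaled pileup, the number of stacked fragments or reads at a peak's highest summit divided by a factor that gives all libraries the same median over shared regions, those with a peak in all 6 libraries. Library sizes ranged from 132686 to 198875 peaks, and the median pileup of shared regions before scaling from 53 to 97. The lists give no read totals, so no counting interval can be attached to a pileup. Positions are given in kb from the gene start to the middle of a region, negative upstream.

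The 10 genes differed in whether their starts were open in U2OS cells. A peak lay over the start in all 6 libraries at SP7, SOX9, MSX2, COL1A2 and SPARC, in the 3 WT libraries at COL1A1 and in 1 library at ALPL, where the peaks of the other libraries ended just upstream. No library had a peak over the upstream start of RUNX2 or over the starts of TWIST1 or DLX5. The downstream RUNX2 start, described below, lay in a region with a peak in all 6 libraries. A missing peak says that none passed the authors' calling, not that the gene was silent, and expression was not measured.

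**Figure D1:**
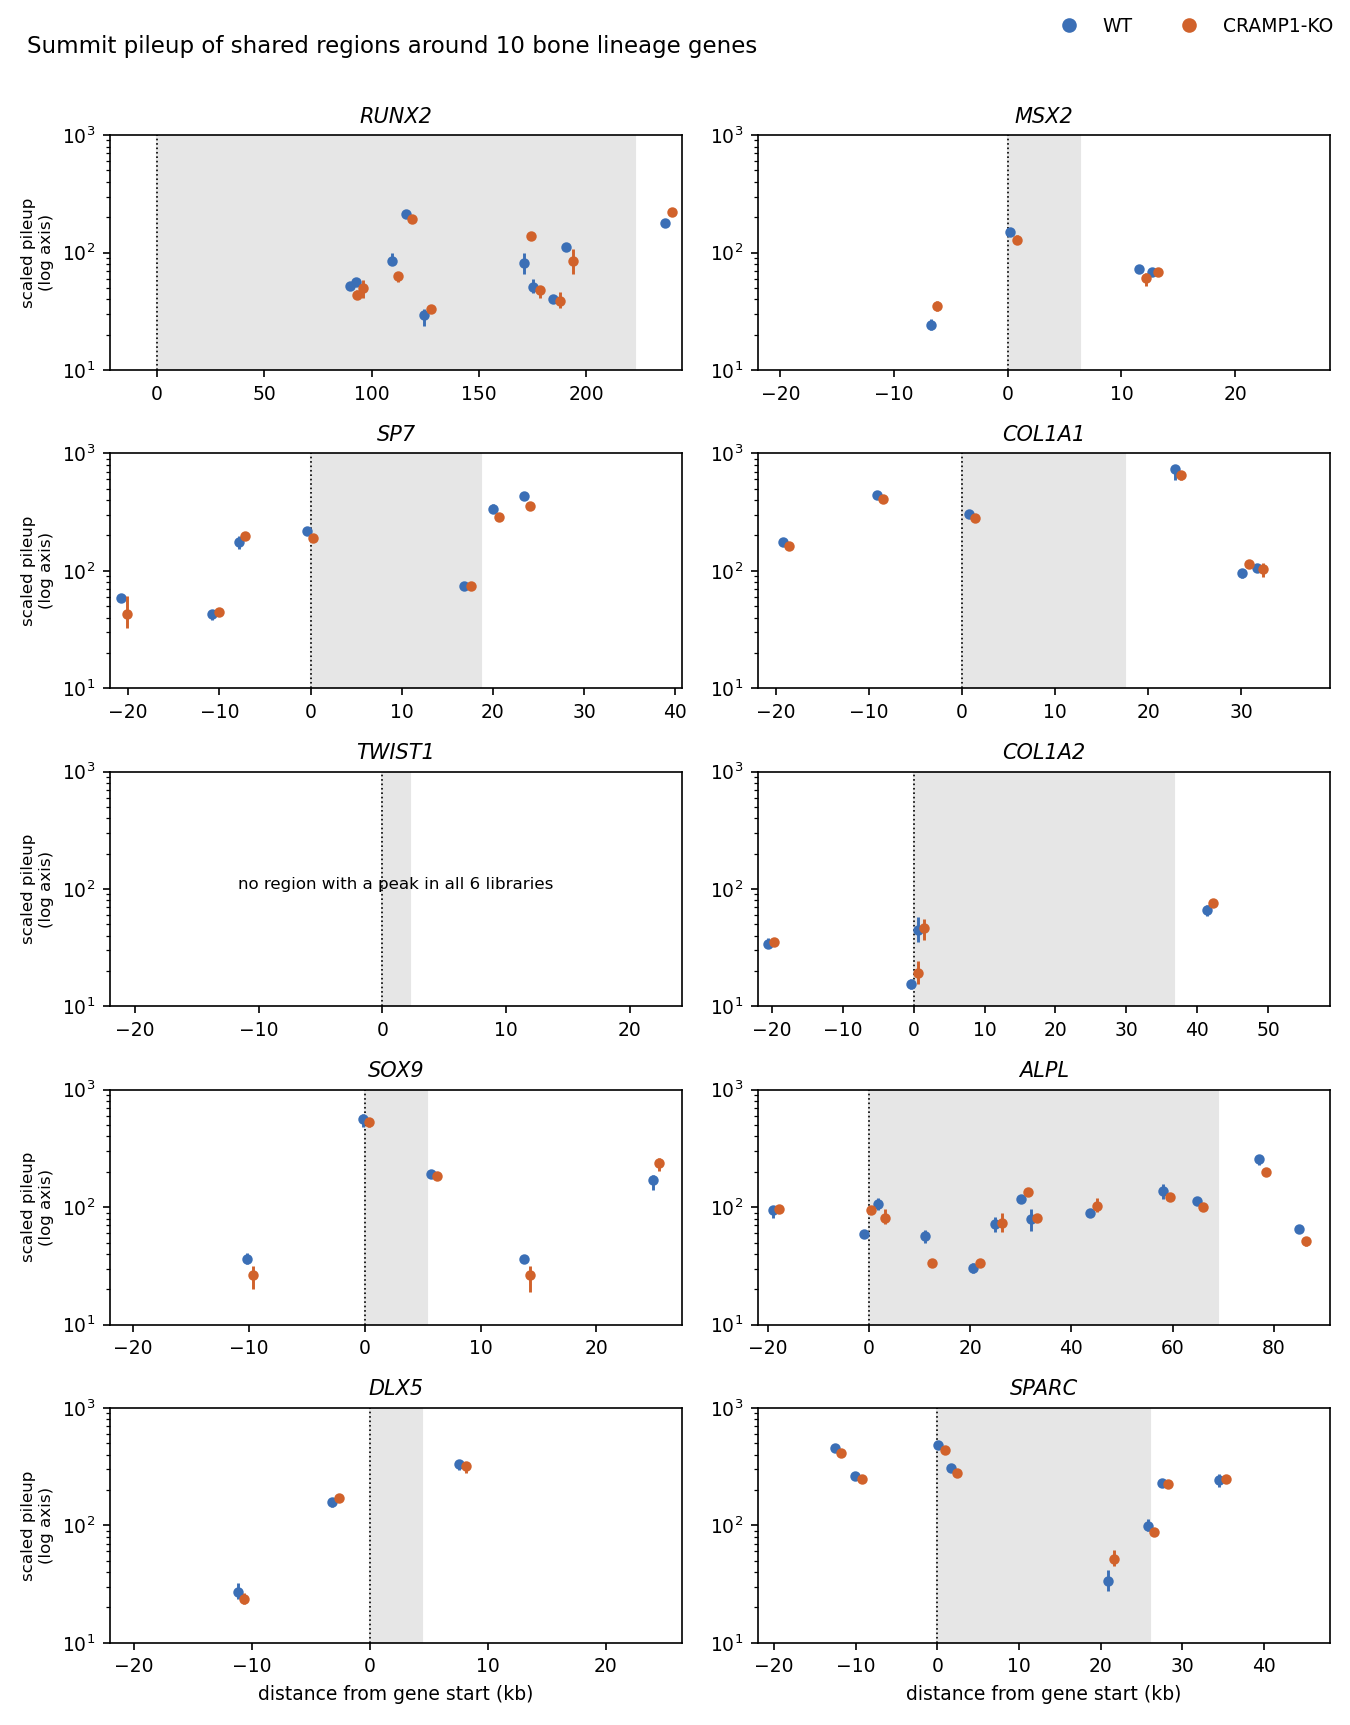
Scaled pileup (log axis) of the 60 shared regions against distance from the gene start in kb, 1 panel per gene. Points are the mean of 3 libraries, vertical lines their lowest to highest value, grey the gene and the dotted line its start; WT and CRAMP1-KO points are set slightly apart sideways. SOX9, SPARC, COL1A1 and SP7 have a strong region at the start, the upstream stretch of RUNX2 is empty and TWIST1 has no shared region.

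RUNX2 (chr6:45296054-45518819, plus strand), the first regulator of osteoblast fate, had 26 regions, 10 of them shared. Nothing was listed near the upstream start: the nearest peak was 59.1 kb away and the nearest shared region 91.2 kb, within a peak-free stretch of 144 kb. SUPT3H, which starts inside RUNX2 on the other strand at 49.3 and 49.6 kb, had no peak within 1 kb of either start. The first shared region stood at 91.6 kb. The next, chr6:45389232-45391599, covered the downstream RUNX2 start, 93.9 kb into the gene, whose GC-rich promoter is printed above. LOC124901324, on the other strand, starts in the same region, at 93.886 kb. The region had scaled pileups of 58.6, 53.5 and 55.7 in WT, and 41.2, 58.4 and 50.0 in the knockout. The genotypes overlapped, and the region was not called (log2 change -0.18, limma adjusted p = 0.38). This distribution of peaks along the gene was found in both genotypes.

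**Figure D2:**
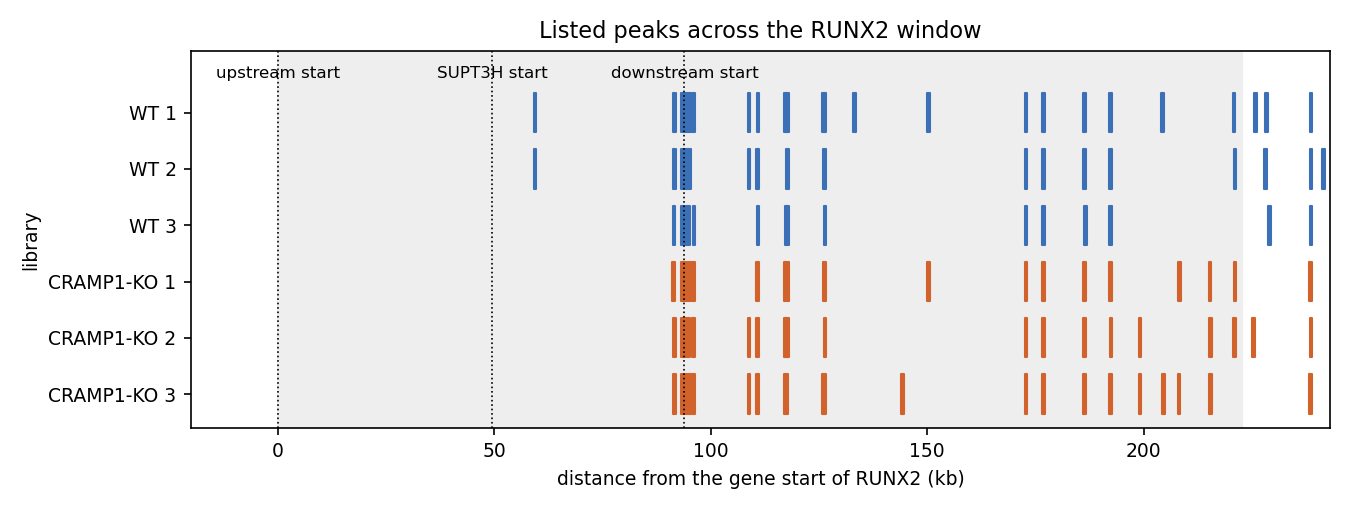
Every listed peak in the RUNX2 window, 1 row per library, against distance from the upstream RUNX2 start in kb; bars are peaks (drawn at least 0.6 kb wide to be visible), grey is the gene and dotted lines are transcript starts. No row has a peak before 59.1 kb, and all 6 rows have one at the downstream start.

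Within RUNX2, 1 region rose and 1 fell in CRAMP1-KO cells. The region at +172.8 kb (chr6:45468568-45469142) had scaled pileups of 66.2, 98.5 and 78.0 in WT, and 138, 139 and 142 in the knockout. All 3 knockout libraries lay above all WT libraries and within a narrow range, a 1.75-fold rise (log2 0.81, SE 0.14, limma adjusted p = 0.00516). The local background at its summits, scaled in the same way, was also higher, at 6.5, 5.8 and 6.3 in WT against 8.5, 7.7 and 7.7. As fold enrichment, pileup over that background, the libraries overlapped (9.17, 14.9 and 10.4 in WT, 14.3, 15.8 and 16.8 in CRAMP1-KO) and the region was not called (log2 0.49, adjusted p = 0.0711). Of the 13 alternative analyses, the other 12 called it.

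The region at +110.9 kb (chr6:45406625-45407290) had scaled pileups of 78.4, 98.5 and 79.4 in WT, and 64.2, 56.0 and 67.7 in the knockout. The knockout libraries were all lower, and the region changed by -0.44 (log2, SE 0.13, limma adjusted p = 0.0407), a call that held in 4 of 13 alternative analyses (adjusted p 0.0212 to 0.195) and was lost whichever 1 of the 6 libraries was left out. The 2 strongest RUNX2 regions were not called. That at +117.4 kb had 203, 219 and 219 in WT, and 189, 205 and 190 in the knockout, and that at +238.6 kb, past the 3′ end, had 169, 177 and 191 against 207, 241 and 212 (adjusted p = 0.403 and 0.1). The latter did not overlap between genotypes, and the former did.

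SP7 (chr12:53720360-53739099, minus strand), the osteoblast factor downstream of RUNX2, had 13 regions, 7 of them shared, and none was called. The region over its start, chr12:53738233-53740053, had scaled pileups of 216, 227 and 209 in WT, and 206, 178 and 189 in the knockout. The knockout libraries lay below the WT libraries by less than the test required (log2 -0.19, limma adjusted p = 0.254). It was stronger than 85.4% of all shared regions. The strongest regions of the window lay past the 3′ end, at +20.3 and +23.8 kb, and the latter covered ground within 1 kb of the start of AAAS, which encodes a nuclear pore protein. The AAAS region had 401, 437 and 470 in WT, and 361, 385 and 330 in the knockout, without overlap and without a call (log2 -0.28, adjusted p = 0.119).

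TWIST1 (chr7:19155091-19157295, minus strand), an inhibitor of RUNX2, had the fewest regions of the 10 genes. Its window held 2 regions, at -1.5 and -0.8 kb, the first with a pileup of 15 in WT replicate 1 and 14 in CRAMP1-KO replicate 3, the second with 16 in CRAMP1-KO replicate 3. The other 4 libraries had no peak there. The start lay in a peak-free stretch of 38.9 kb, and the nearest shared region was 96.5 kb from the start, so no TWIST1 region could be tested.

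SOX9 (chr17:70117161-70122560, plus strand), the cartilage regulator, had 12 regions, 5 of them shared. Its start lay in one of the strongest regions of the set (chr17:70116117-70118369), above 99.4% of all shared regions. There the scaled pileup was 481, 569 and 626 in WT, and 544, 577 and 481 in the knockout. The genotypes overlapped throughout (log2 -0.06, limma adjusted p = 0.772). A region 25.2 kb downstream of the start, chr17:70142001-70142635, had 140, 185 and 187 in WT, and 246, 263 and 202 in the knockout. All knockout libraries were higher, a 1.39-fold rise that passed the threshold narrowly (log2 0.48, SE 0.15, limma adjusted p = 0.0487). The call held in 4 of 13 alternative analyses (adjusted p 0.0167 to 0.559) and was lost without any 1 library other than CRAMP1-KO replicate 3, and as fold enrichment the change was 0.14 on the log2 scale (adjusted p = 0.559).

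DLX5 (chr7:96649702-96654143, minus strand), which acts upstream of RUNX2 and SP7, had 8 regions, 3 of them shared, all outside the gene. The nearest, at -2.9 kb (chr7:96656656-96657422), began 2.51 kb from the start and had 156, 171 and 144 in WT against 167, 167 and 175 in CRAMP1-KO. The strongest, at +7.8 kb (chr7:96645560-96647041), had 295, 351 and 351 against 344, 347 and 280. Both overlapped between genotypes, and neither was called (limma adjusted p = 0.487 and 0.844). DLX6, the paired homeodomain gene that starts 19.3 kb away, had a peak within 1 kb of its start in 1 library.

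MSX2 (chr5:174151575-174157902, plus strand), a homeodomain regulator of skull and tooth precursors, had 8 regions, 4 of them shared. A weak region 6.5 kb upstream, chr5:174144767-174145355, had scaled pileups of 27.4, 22.1 and 23.7 in WT, and 38.7, 35.7 and 31.5 in the knockout. Every knockout library was above every WT library, a 1.45-fold rise (log2 0.54, SE 0.13, limma adjusted p = 0.0182). Fold enrichment gave 0.55 (adjusted p = 0.0175), with scaled backgrounds of 4.5, 3.9 and 4.0 in WT, and 4.7, 3.9 and 3.6 in the knockout. The call was lost without CRAMP1-KO replicate 1 or 2 and without WT replicate 2 or 3 (highest adjusted p 0.0706). The region over the MSX2 start, whose promoter carries the 2 CCAAT boxes, had the opposite sign: 148, 150 and 153 in WT, and 119, 141 and 123 in the knockout. It did not overlap between genotypes and was not called (log2 -0.24, adjusted p = 0.158).

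COL1A1 (chr17:48261457-48279000, minus strand) encodes the major chain of type I collagen and had 15 regions, 6 of them shared, with no call. The region at its start, chr17:48276798-48279110, had 283, 319 and 308 in WT, and 264, 306 and 270 in the knockout, overlapping values (log2 -0.12, limma adjusted p = 0.499). The edge of the peak towards the promoter differed: it lay 110, 100 and 105 bases upstream of the start in WT, and 35, 111 and 117 bases downstream of it in CRAMP1-KO. This edge was singled out after its values were seen and was not tested. The summits, 1000 to 1304 bases into the gene, lay in the same range in both genotypes. The strongest region of all 10 genes was 23.2 kb from the COL1A1 start, past its 3′ end (chr17:48255224-48256292), with 595, 802 and 800 in WT, and 664, 710 and 596 in the knockout, above 99.9% of shared regions and not called (adjusted p = 0.489).

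COL1A2 (chr7:94023873-94060544, plus strand) encodes the second chain of the same collagen and had 6 regions, 4 of them shared, again with no call. In contrast to COL1A1, its start region (chr7:94023598-94024410) was weak, with scaled pileups of 15.2, 17 and 13.9 in WT, and 24.2, 17.9 and 15.4 in the knockout. It was stronger than 0.9% of shared regions, and the genotypes overlapped (log2 0.30, limma adjusted p = 0.226). A region 1.0 kb into the gene (chr7:94024639-94025147) was higher, with 57.9, 35.7 and 41.8 against 55.7, 47.7 and 36.9. The region at +41.8 kb had 66.2, 73.0 and 58.5 against 72.7, 79.8 and 73.9, also overlapping (adjusted p = 0.847 and 0.267).

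ALPL (chr1:21835858-21904905, plus strand), the alkaline phosphatase of mineralising cells, had 23 regions, 13 of them shared, and its start was the only one of the tested start regions that was called. The region at -0.3 kb, chr1:21835127-21835896, had scaled pileups of 62.4, 56.0 and 57.1 in WT, and 92.0, 95.3 and 96.2 in the knockout. The WT and knockout libraries formed separate tight groups, a 1.62-fold rise (log2 0.69, SE 0.11, limma adjusted p = 0.00287). All 13 alternative analyses called it, with changes of 0.66 to 0.79, among them fold enrichment (6.02, 4.82 and 5.11 in WT, 7.37, 8.86 and 9.46 in CRAMP1-KO). Summits lay 149 to 185 bases upstream of the hg19 gene start in every library. The peak was 626, 280 and 150 bases wide in WT and 475, 626 and 700 bases wide in CRAMP1-KO, overlapping widths. The first RefSeq start of ALPL, with its 3 E-boxes, and the second one 0.439 kb downstream both had a region within 1 kb. Another start at 42.3 kb had none. RefSeq starts were counted from the GRCh38 gene start, and the hg19 and GRCh38 lengths of ALPL differ by 0.379 kb. The lengths do not say at which end they differ. The hg19 start may therefore not be the start of the printed promoter, and the summits cannot be placed upstream or downstream of the latter.

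A second ALPL region moved the other way. At +11.8 kb, inside the gene (chr1:21847275-21847998), the scaled pileup was 49.5, 63.7 and 58.5 in WT, and 32.7, 34.5 and 32.3 in the knockout. All knockout libraries were below all WT libraries, and its log2 change was -0.78 (SE 0.12, limma adjusted p = 0.00299). The scaled local background was lower too, at 6.2, 5.3 and 5.8 in WT against 4.4, 4.5 and 4.0, and as fold enrichment the change was -0.40 (adjusted p = 0.0875). Of the 13 alternative analyses, the other 12 called this region. The strongest ALPL region, at +77.8 kb past the 3′ end (chr1:21912920-21914317), had 228, 267 and 270 in WT, and 197, 206 and 200 in the knockout. It did not overlap between genotypes and missed the threshold (log2 -0.34, adjusted p = 0.0659), and the other 10 shared ALPL regions ranged from -0.41 to 0.22 without a call.

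SPARC (chr5:151040657-151066726, minus strand), the collagen-binding matrix protein, had 15 regions, 8 of them shared, and a strong region at the start. The start region, chr5:151065450-151066997, had 448, 498 and 502 in WT, and 437, 454 and 418 in the knockout. Its values overlapped (log2 -0.14, limma adjusted p = 0.383), and it exceeded 98.6% of shared regions. A weak region inside the gene at +21.3 kb, chr5:151044697-151046141, had 27.4, 32.3 and 41.8 in WT, and 44.8, 61.9 and 48.5 in the knockout. The knockout libraries were all higher, a 1.54-fold rise (log2 0.62, SE 0.17, limma adjusted p = 0.0314). The call was lost in 7 of 13 alternative analyses, among them fold enrichment (adjusted p = 0.175) and the removal of WT replicate 1 or 2 or CRAMP1-KO replicate 2 or 3.

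**Figure D3:**
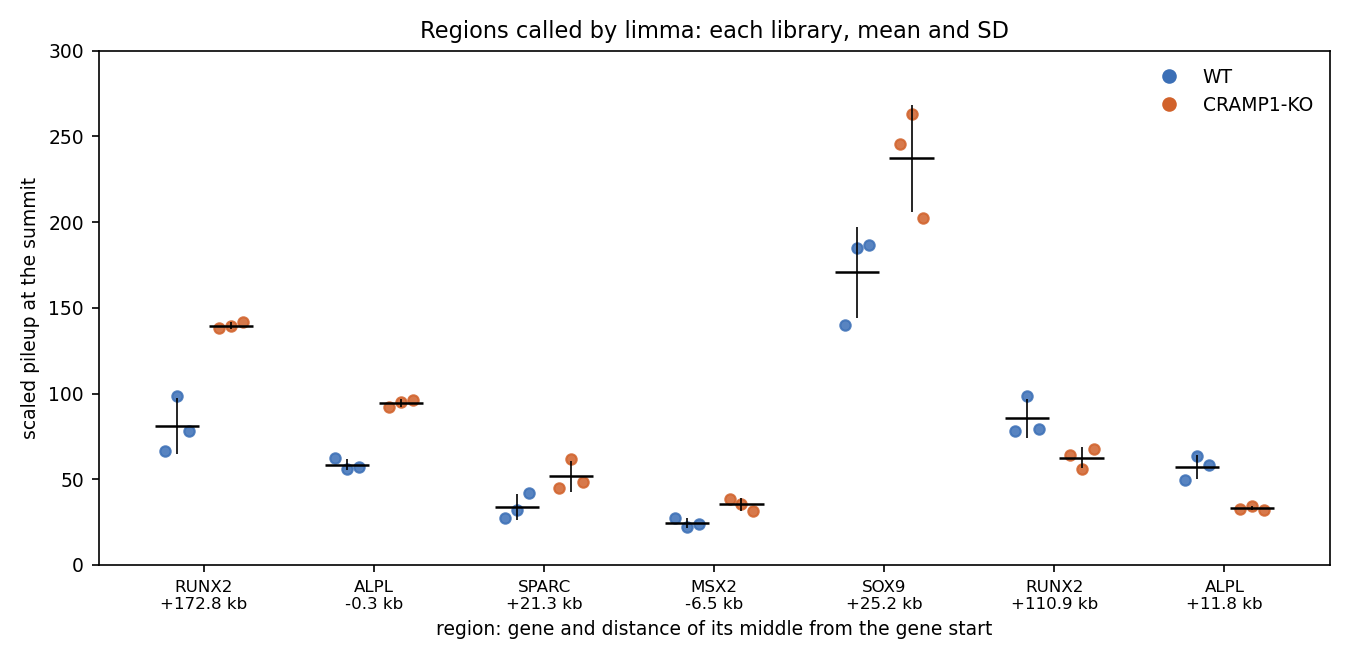
Scaled pileup at the summit for the 7 regions called by limma, with each library as a point, the mean of 3 as a horizontal bar and the SD as a vertical line. In each region all 3 CRAMP1-KO libraries lie on one side of all 3 WT libraries, as at the ALPL start (62.4, 56.0 and 57.1 against 92.0, 95.3 and 96.2). The regions were chosen by these same values, and 38.1% of all shared regions separate in this way.

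Counted over all 10 genes, 7 of 60 shared regions were called (11.7%), against 17.1% of the 92505 shared regions of the genome. Of these, 5 were higher in CRAMP1-KO (8.33%, background 7.34%) and 2 lower (3.33%, background 9.78%). The called regions belonged to RUNX2, SOX9, MSX2, ALPL and SPARC, and SP7, TWIST1, DLX5, COL1A1 and COL1A2 had none. The libraries of the genotypes did not overlap in 23 of 60 regions (38.3%), against 38.1% of all shared regions. The median log2 change was -0.06 in the bone genes and -0.07 over all shared regions, and its median size 0.17 against 0.21. The bone genes' share of calls was thus no higher than the background. Shared regions within 2.5 Mb of each window, its own regions left out, had median changes from -0.14 around MSX2 to 0.12 around TWIST1. With each library scaled to its median over such neighbours, 5 of the 7 calls remained. Those at SOX9 +25.2 kb and SPARC +21.3 kb were lost (limma adjusted p = 0.0985 and 0.0612).

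**Figure D4:**
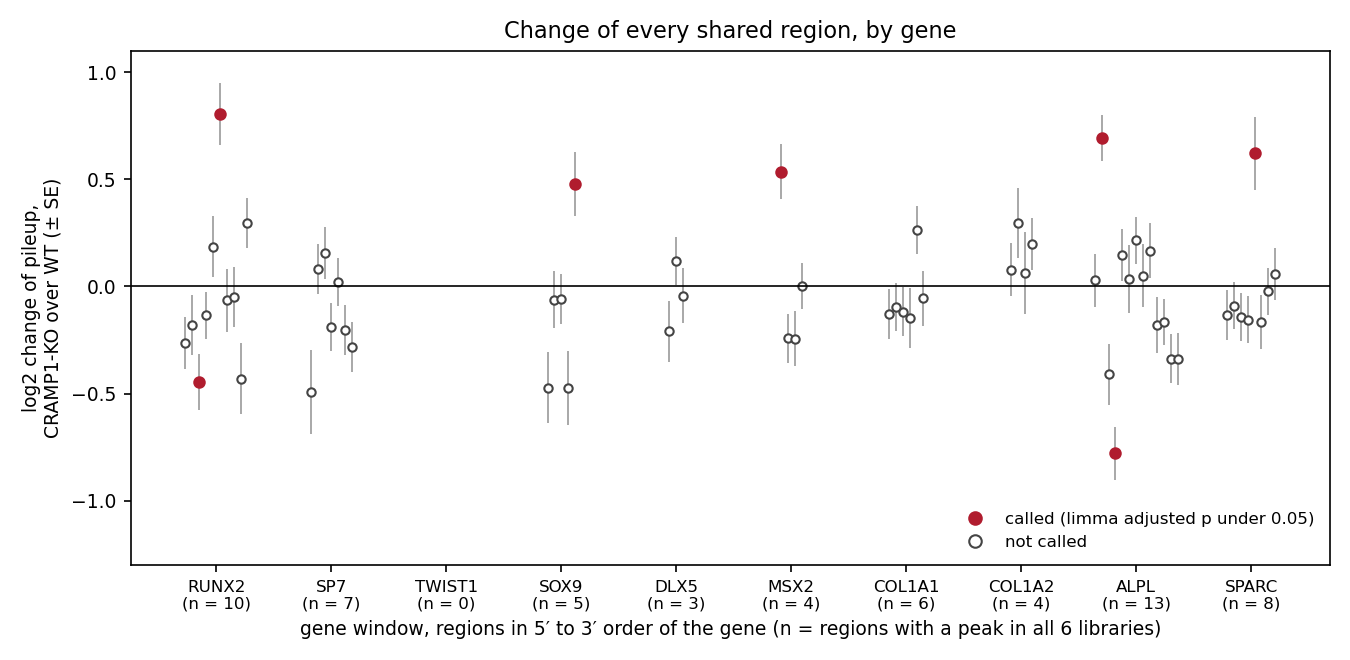
Log2 change of the scaled pileup, CRAMP1-KO over WT, for each of the 60 shared regions (± SE from limma), grouped by gene and ordered from 5′ to 3′. The 7 called regions are filled; they range from -0.78 to 0.81, and the other 53 lie on both sides of 0.

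The count of calls changed when single libraries were left out: it was 3 without WT replicate 2 and 4 without WT replicate 1, WT replicate 3 or CRAMP1-KO replicate 2. The highest count with a library left out was above that of the main analysis. These totals can include regions not called in the main analysis. The share of all shared regions called in these smaller sets is not given, so the changes cannot be read as particular to the bone genes. With fold enrichment in place of pileup, 2 regions were called, the ALPL start and the MSX2 region at -6.5 kb (background 5.19%). Relative to the library median, the width of the peaks gave no call: limma on scaled covered bases per region called 0 of 60 (background 0.108%). Of these regions, 6 had an unadjusted limma p under 0.05, and the lowest adjusted p was 0.277. Scaling to the library median removes any library-wide difference in width. The median width of all peaks was 351, 425 and 378 bases in WT, and 463, 430 and 457 bases in CRAMP1-KO, without overlap.

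Of the 128 regions, 1 had a peak in every WT library and in no CRAMP1-KO library (0.781%, background 1.14%), and 1 the reverse (0.781%, background 0.767%). The WT region lay 2.5 kb upstream of COL1A1 (chr17:48281413-48281647). Its pileups of 114, 107 and 71 stood on a high local background of 49.6, 47.8 and 29.7, so its fold enrichment was 2.27, 2.21 and 2.34. The CRAMP1-KO region lay 215.2 kb into RUNX2 (chr6:45511053-45511467) and was faint, with pileups of 16, 14 and 14 and fold enrichments of 4.05, 3.73 and 2.95. The count of 2 rose to 8 without WT replicate 3 and to 6 without CRAMP1-KO replicate 1. With a library left out the rule is easier to meet, so a rise is built in. The background shares above are for the full set of libraries.

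Over whole windows, peaks were counted per 10000 peaks of the library and covered bases per 1000000. The peak share of the RUNX2 window was 1.03 ± 0.04 per 10000 with WT and 1.14 ± 0.07 without CRAMP1 (SD, n = 3 each, exact permutation p = 0.1, the smallest that 3 against 3 allows). It was the only 1 of the 10 windows whose libraries did not overlap by peak share, against 14.1% of 60 kb tiles of the genome. The RUNX2 difference did not keep its sign at stricter peak limits. The tiles are a rough background, since the windows span 42.2 to 263 kb. Windows also count every overlapping peak, while tiles count peaks by summit. By covered bases, RUNX2 (101 ± 5.46 against 113 ± 2.77) and SPARC (76.6 ± 1.17 against 89.1 ± 8.26) were higher in every CRAMP1-KO library (exact permutation p = 0.1 each, n = 3 per genotype), 2 of 10 windows against 20.7% of tiles. Without CRAMP1-KO replicate 2, 4 windows stood apart by covered share and 2 by peak share, and without WT replicate 2, 3 by peak share. A window apart in the full set stays apart with a library left out, so these counts could only stay or rise. The tile shares above are for 3 against 3 and do not apply to them.

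**Figure D5:**
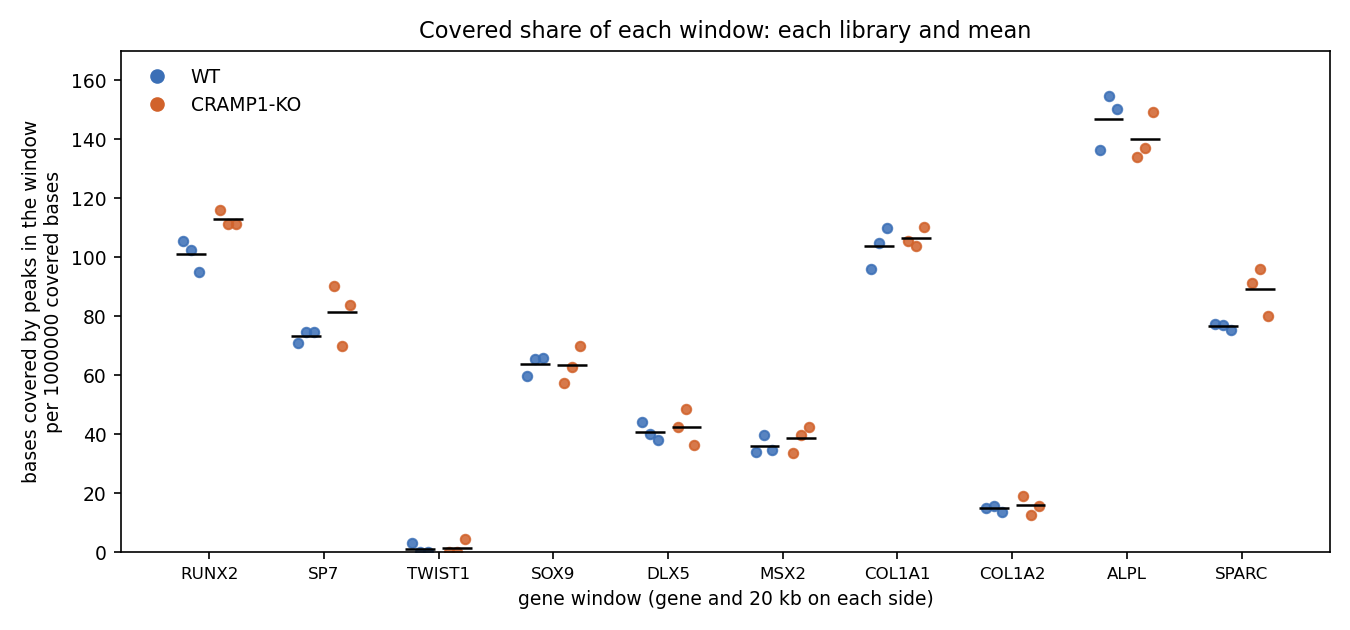
Bases covered by peaks in each gene window per 1000000 covered bases of the library, with each library as a point and the mean of 3 as a bar. ALPL, RUNX2 and COL1A1 have the most covered bases and TWIST1 almost none. Values are not divided by window length, which runs from 42.2 kb at TWIST1 to 263 kb at RUNX2. The genotypes do not overlap in RUNX2 (101 ± 5.46 against 113 ± 2.77) and SPARC (76.6 ± 1.17 against 89.1 ± 8.26).

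A further 19 bone genes, taken from a list chosen with earlier results of these data known, were counted in the same way. A peak lay within 1 kb of the start in all 6 libraries at 12 of them, including SPP1 (osteopontin) and BGLAP (osteocalcin), and in none at 6, namely IBSP, DMP1, MEPE, SOST, POSTN and DCN. Of their 83 shared regions, 2 were called higher and 5 lower (8.43%, against 17.1% of all shared regions). Among 10 marker genes of other lineages, all 6 libraries had a peak near the start at MYOD1, KRT5 and EPCAM, some libraries at GATA1 and CDH5, and none at ALB, PTPRC, CD3E, PAX6 and INS. The hg19 and GRCh38 lengths differed by 4.46 kb for DCN and 4.23 kb for PAX6, more than the 1 kb searched. The absence of a peak at these starts is therefore uncertain. The 47 shared regions of the 10 marker genes held 0 higher and 9 lower calls (19.1%, against the same 17.1%). Of the 9, 6 lay around INS, which encodes insulin. The 7 shared regions of the INS window had a median log2 change of -0.65. The change of regions beyond that window is not given, so these calls cannot be assigned to the gene itself.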

How the data were processed

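ATAC-seq peak lists of 6 U2OS libraries (3 WT, 3 CRAMP1-KO) were used. The submitters' processing notes name the hg19 build, MACS3, BWA 0.7.17-r1188, cutadapt 3.4 and bcl2fastq 2.20.0. The settings of MACS3, read filters and read shifting are steps not given in the sources used. The deposited files hold, per peak, a score, a fold enrichment over local background (a ratio, with 1 added to each side), and −log10 p and −log10 q, called in each library separately; every deposited q was under 0.05. The deposited summit offset, in bases, gave the summit position.

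From fold enrichment and the Poisson −log10 p, the pileup and background of each summit were solved; every solved pileup was whole within 0.01. The solver and limma were tested on simulated data. Peaks of chromosomes 1 to 22 and X were merged at 1 bp overlap. The highest pileup per region and library was divided by a library factor and compared as log2 values with limma 3.58.1 in R 4.3.3 (two-sided, Benjamini-Hochberg over 92505 shared regions, threshold 0.05). Window shares were tested by exact permutation, two-sided, over 20 label assignments. Python 3.11.15, numpy 2.4.6, pandas 2.3.3, scipy 1.17.1 and matplotlib 3.10.9 did the rest.

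Named regions were, per gene, that at the start, the 2 with the highest median −log10 q, and all called or genotype-specific ones; other regions are given for the downstream RUNX2 start. Members and lists were chosen with earlier results of these data known. No hg19 annotation was used: gene limits were given, strands were written by hand, and lengths differed by 0.003 to 2.39 kb from a GRCh38.p14 table, most at TWIST1. Gene lists were dropped where that check failed (2 of 21 bone and 1 of 11 other genes). Regions are therefore placed by distance, not by exon or intron. Alternatives were other scalings, filters, q limits, overlap rules and flanks, lists of equal length, a replicate block and each library left out.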

Additional observations from a re-analysis of the deposited data

How the results depend on the processing

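The depth of the libraries is unknown, and the lowest pileup of a listed peak around the 10 genes was 10, so a missing peak in a faint region need not be a difference. Of the 7 calls by pileup, 2 were left with fold enrichment and 5 with a replicate block. Leaving out 1 library gave totals of 3 to 8 calls, which can include regions not called in the main analysis. The replicate numbers did not pair the libraries (correlations of same-numbered deviations 0.06, 0.06 and -0.09). Calls by covered bases numbered 0 under every alternative run, the replicate block included. The 2 genotype-specific regions became 1 with lists of equal length and 1 when summits had to lie within 150 bp, and 2 to 8 without 1 library. Windows apart by peak share, 1 in the main analysis, numbered 0 with lists of equal length, 0 at −log10 q of at least 5, 2 at 10, 2 with 10 kb flanks and 1 to 3 without 1 library. The RUNX2 peak share difference of 0.106 per 10000 reversed to -0.00574 at −log10 q of at least 5 and to -0.0381 at 10. Windows apart by covered share, 2 in the main analysis, numbered 0 with lists of equal length, 1 at −log10 q of at least 5, 4 at 10, 1 with 10 kb flanks, 1 with 50 kb flanks and 2 to 4 without 1 library. Leaving out 1 library loosens the rules for genotype-specific regions and for windows apart, so those counts tend to rise by the rule itself. Background shares under the looser rules are not given. The causes of the other changes were not tested.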
